A study of Mus musculus with 4 samples.

Results

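The regions described here were open chromatin regions that entered the depth-matched ATAC-Seq peak lists of both Cpt1a-KO libraries and of neither control library. In each library the 100000 peak summits with the highest −log10 p on the autosomes and X were kept. The kept intervals of the 4 lists were merged wherever they overlapped by at least 1 bp. This gave 73863 regions, of which 1842 (2.49%) were kept in both KO lists and in neither control list and are called gained. The members were chosen by the −log10 p of the same 4 libraries, so their number, their KO and control values and the direction of those values are a description of that choice and were not tested. The opposite pattern, kept in both control lists and in neither KO list, was met by 1631 regions (2.21%), which are called lost. A further 42727 regions were kept in all 4 lists.

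CPT1A enables the entry of long-chain fatty acids into mitochondria for oxidation, a fuel that hematopoietic stem cells are known to draw on. ATAC-Seq cuts accessible DNA with the transposase Tn5, and stretches with many fragments, called peaks, mark open promoters, enhancers and insulator sites. Promoters rich in CpG dinucleotides are open in most cell types, whereas distal sites tend to be open in few.

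The study compared cells sorted from mouse bone marrow, with 2 control and 2 KO libraries. The controls are labelled WT, and the study's methods describe them as Cpt1a fl/fl mice. The KO mice are labelled Cpt1a-KO and are described as Cpt1a fl/fl with Vav1-Cre, so Cpt1a was deleted in all hematopoietic cells from early development and not in stem cells alone. The labels call the cells long-term HSCs, the study's text calls them HSPCs, and they were cryopreserved after sorting. The mice were adults of both sexes on the C57BL/6 background, and the labels do not give the age or sex behind a library or say how many mice it holds. With 2 libraries against 2, an exact two-sided permutation test over libraries cannot give a p below 0.33, so no test between the genotypes was run.

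The lists were matched for the number of summits but not for other properties. The lowest kept −log10 p was 9.04 in control 1, 9.46 in control 2, 8.0 in KO 1 and 6.32 in KO 2. The kept summits lay in 56343 and 57486 intervals in the controls and in 62453 and 60541 in the KO libraries, with a median interval of 497 and 474 bp against 312 and 372 bp. The number of fragments over each summit, called its height here, was recovered from the authors' fold and −log10 p, which were matched by a whole number of fragments and a Poisson background at 100% of the summits whose −log10 p was under 280. A fragment here is 1 count of the peak caller. Whether the caller counted whole fragments or extended reads was not checked. The genome-wide background, a measure of depth times fragment length, was 2.08 fragments per base in control 1, 2.37 in control 2, 2.07 in KO 1 and 1.46 in KO 2. A summit on this background was kept from a height of 15 fragments in control 1, 17 in control 2, 14 in KO 1 and 10 in KO 2. Divided by the background of its own library, that limit was 7.22, 7.17, 6.77 and 6.87, so at summits on this background the depth-scaled limit of both KO lists lay slightly below that of both control lists. A height of 10 fragments has a 95% Poisson interval of 4.80 to 18.4, and one of 17 fragments has 9.90 to 27.2. These intervals cover counting error only, since fragments without molecular identifiers may be PCR copies. Of the 8 stem cell marker genes looked up, which include Procr, Kit and Mecom, each had kept summits in all 4 libraries, 61 to 68 summits per library in all. Control 1 and control 2 had 22 and 21 kept summits at the 5 B cell genes, against 25 and 26 for KO 1 and KO 2, and the 6 T cell genes had 18 and 20 against 18 and 19. The 6 granulocyte genes had 18 and 16 against 14 and 15, the 4 erythroid genes 14 and 15 against 13 and 11, and the 3 mast cell genes 0 and 0 against 0 and 1. The part of other cell types in the gained regions was not tested.

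Sequence was on file for the few gained regions near gene starts. RefSeq promoter windows (GRCm38.p6, the same coordinates as mm10) of 250 bases before to 50 after a start were on file for 17274 of 21631 protein-coding genes in 21045 windows. The sequences below are the 250 bases before the start, read 5′ to 3′ on the gene's strand, for the 5 gained regions over a start with the best KO ranks, and capitals mark CpG dinucleotides.
Sh2d1b1 (chr1:170277068-170277317, plus strand): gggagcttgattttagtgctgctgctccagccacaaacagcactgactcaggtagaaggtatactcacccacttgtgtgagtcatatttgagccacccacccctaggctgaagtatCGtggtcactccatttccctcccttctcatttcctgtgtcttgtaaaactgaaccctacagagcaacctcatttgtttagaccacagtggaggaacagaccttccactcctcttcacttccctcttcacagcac
Mb21d2 (chr16:28929699-28929948, minus strand): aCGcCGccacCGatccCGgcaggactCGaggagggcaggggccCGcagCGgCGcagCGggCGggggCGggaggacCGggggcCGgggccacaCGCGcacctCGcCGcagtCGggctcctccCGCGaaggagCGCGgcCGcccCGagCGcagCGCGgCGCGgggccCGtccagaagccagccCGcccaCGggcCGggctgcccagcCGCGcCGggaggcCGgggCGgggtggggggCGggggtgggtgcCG
Qrfprl (chr6:65381044-65381293, plus strand): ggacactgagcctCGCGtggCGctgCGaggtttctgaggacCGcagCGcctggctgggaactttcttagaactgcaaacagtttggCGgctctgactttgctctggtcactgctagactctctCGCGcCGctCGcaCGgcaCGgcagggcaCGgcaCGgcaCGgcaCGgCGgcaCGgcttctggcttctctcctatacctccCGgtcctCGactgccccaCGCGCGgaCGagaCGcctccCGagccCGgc
Gpr37 (chr6:25689981-25690230, minus strand): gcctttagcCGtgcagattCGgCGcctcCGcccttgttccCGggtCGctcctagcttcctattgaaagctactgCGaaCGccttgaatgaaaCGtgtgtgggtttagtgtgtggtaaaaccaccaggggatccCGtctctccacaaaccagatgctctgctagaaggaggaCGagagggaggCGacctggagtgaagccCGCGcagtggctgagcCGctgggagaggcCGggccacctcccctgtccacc
Afap1l2 (chr19:57008576-57008825, minus strand): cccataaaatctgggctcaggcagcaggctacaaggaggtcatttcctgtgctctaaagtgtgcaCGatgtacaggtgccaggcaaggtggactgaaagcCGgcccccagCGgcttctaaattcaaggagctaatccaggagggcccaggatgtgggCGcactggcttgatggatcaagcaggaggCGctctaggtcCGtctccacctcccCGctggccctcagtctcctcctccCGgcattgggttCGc
The Mb21d2 sequence held 40 CpG dinucleotides, that of Qrfprl 28, that of Gpr37 16 and that of Afap1l2 9. The Sh2d1b1 sequence held 1. Sh2d1b1 encodes a signaling adaptor of SLAM family receptors in natural killer cells, and its sequence held matches to the AP-1 motif TGANTCA and the RUNX motif TGTGGT. GPR37 and QRFPRL are G protein–coupled receptors, and AFAP1L2 is an adaptor protein linked to the actin cytoskeleton. The Afap1l2 start used here lies inside the annotated gene and belongs to one of several starts.

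No window was on chromosome 18. In all, 67 of the 1768 gained regions on the other chromosomes (3.79%) overlapped a protein-coding start, at 69 genes. Lost regions did so in 2.17% and regions kept in all 4 lists in 22.7%. Counting every base of the window, gained regions touched 90 promoter windows of 83 genes and lost regions 39 windows of 35 genes. The windows under gained regions held a median of 17.5 CpG dinucleotides per 300 bases (lower and upper quartile 10.3 and 28), against 6 (3.5 and 18.5) under lost regions, 22 (15 and 30) under regions kept in all 4 lists, 14.5 (6 and 23) under regions in 1 KO list only and 13 (4 and 25) in all windows. Fewer than 5 CpG dinucleotides were found in 7 of 90 windows under gained regions (7.78%), in 14 of 39 under lost regions (35.9%) and in 27.7% of all windows. The median GC content was 62.7% under gained regions, 54.7% under lost regions and 56.7% in all windows. Some genes have several windows and neighboring windows overlap, so these shares were not tested. The windows under the 2 sets thus differed in CpG content. The median under gained regions lay between that under regions in 1 KO list only and that under regions kept in all 4 lists.

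**Figure D1:**
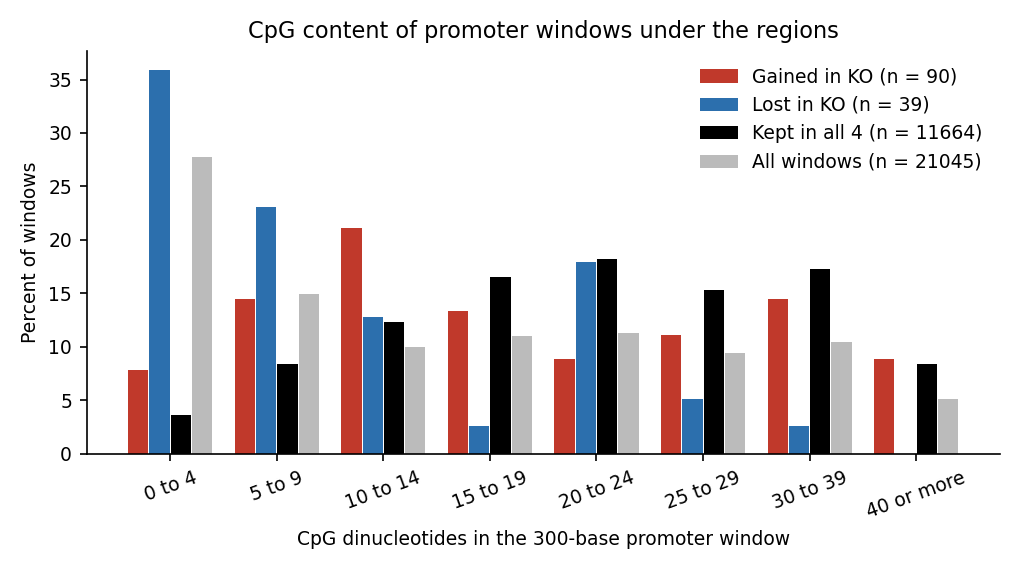
Percent of RefSeq promoter windows (y axis) by the number of CpG dinucleotides in the 300-base window (x axis), for windows under gained regions (red), lost regions (blue), regions kept in all 4 lists (black) and all windows (grey). The lost bars are highest at 0 to 4 CpG dinucleotides (35.9%), where the gained bar stands at 7.78%.

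Short motif matches in the same windows were counted on both strands. The SP/KLF motif GGGCGG was present in 59 of 90 windows under gained regions (65.6%), in 15 of 39 under lost regions (38.5%) and in 46.7% of all windows. Under regions kept in all 4 lists it was present in 68.6% of windows and under regions in 1 KO list in 51.3%. The RUNX motif TGTGGT was present in 9 of 90 (10.0%), 11 of 39 (28.2%) and 14.7%, respectively, and in 11.7% and 8.40% under the latter 2 sets. For the SP/KLF motif the share under gained regions was thus closest to that under regions kept in all 4 lists. For the RUNX motif it lay between that set and regions in 1 KO list. The PU.1 motif GAGGAAGT was found in 1 window under a gained region (1.11%) and in 3 under lost regions (7.69%), against 3.15% of all windows. The AP-1 motif was present in 4.44% and 7.69% of the 2 sets and 7.04% of all windows, the GATA motif AGATAA in 6.67%, 7.69% and 9.68%, and the CCAAT box CCAAT in 35.6%, 30.8% and 38.5%. Matches of GGGCGG rise with CpG content by construction, and the PU.1, GATA, RUNX and AP-1 motifs were found in only 1 to 11 windows of a set. The sequence of the other gained regions, away from starts, was not analyzed here.

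The other named members over a start were at Col4a5, which encodes a basement membrane collagen chain, Osmr, the oncostatin M receptor subunit, Drd5, a dopamine receptor, Gm6712, and the shared start region of Amigo2, a cell adhesion gene, and Pced1b. At Sh2d1b1 (chromosome 1, 170277033 to 170277417) the height over the genome background was 6.74 in control 1, 5.90 in control 2, 12.6 in KO 1 and 11.7 in KO 2. At Gpr37 (chromosome 6, 25689422 to 25690444) it was 5.30, 6.32, 10.1 and 13.7 in the same order. The Osmr region (chromosome 15, 6873868 to 6874392) had 7.70, 6.32, 11.1 and 10.3. In these 3 regions both KO values lay above both control values, as the choice of members makes likely.

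**Figure D2:**
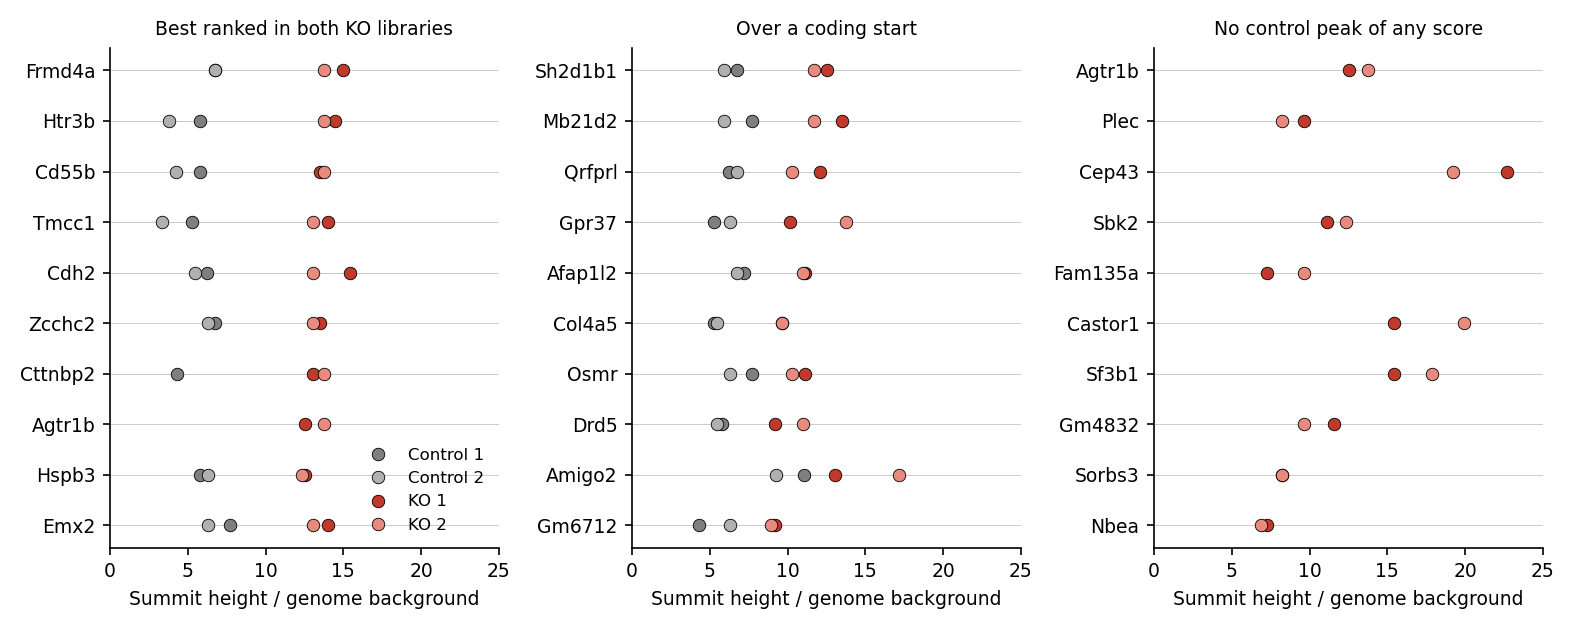
Summit height divided by the genome background of the library (x axis) for 10 gained regions each with the best rank in the weaker KO library, over a protein-coding start, and with no control peak of any score, labelled by the overlapping or nearest protein-coding gene. Each point is 1 library (grey, controls; red, KO), and a missing point is a library with no peak on its list. In the left and middle panels the KO points lie to the right of the control points, as the choice of members makes likely.

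The gained regions were weak peaks in the control libraries far more often than they were absent. A control peak that fell short of the 100000 kept summits overlapped 1822 of the 1842 members (98.9%; exact 95% binomial interval 98.3% to 99.3%), and 1684 (91.4%) had one in both controls. Only 20 members (1.09%, 0.664% to 1.67%) had no control peak of any score, and 138 had one in 1 control. For lost regions the share with a weaker peak in at least 1 KO library was 98.7%, and 21 had none. A list holds no summit with a −log10 p under 2, which on the genome background means heights under 6 or 7 fragments in the controls, so an absent peak is not an absence of fragments.

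Most members had a weaker peak close to the limit in at least 1 control, but fewer had one in a given control. The median rank was 127434 in control 1 (n = 1751) and 128638 in control 2 (n = 1755). A rank within the next 25000 below the limit in at least 1 control was held by 1169 members (63.5%), and 406 (22.0%) were within that range in both. Counted by library, 749 members (40.7%) were within it in control 1 and 826 (44.8%) in control 2. In 265 members (14.4%) both controls ranked beyond 150000 or had no peak. The strongest control summit lay within 50 bp of a kept KO summit in 85.2% of the members with a control 1 peak and 85.4% of those with a control 2 peak. The nearest kept control interval was a median of 8497.5 bp away, and 237 members (12.9%) lay within 1000 bp of one. In lost regions the strongest KO 1 and KO 2 summits lay within 50 bp of a kept control summit in 78.4% and 73.5%. Only peaks overlapping a member were counted, and the nearer of 2 summits was used, so short distances were likely beforehand. The overlapping control summits thus mostly lay near a KO summit, and most members lay over 1000 bp from any kept control interval.

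The KO peaks themselves were not among the strongest of their lists. No member ranked in the first 25000 of both KO libraries, 11 (0.597%) ranked in the first 50000, and 321 (17.4%) in the first 75000. The median fold over background was 5.30 in KO 1 and 4.89 in KO 2, against 9.15 and 8.45 in regions kept in all 4 lists. In control 1 and control 2 the median fold of the weaker peaks was 3.9 and 3.88. On the authors' −log10 p the genotypes overlapped in part, since in 625 of the 1684 members with a peak in all 4 libraries (37.1%) a control value was at or above a KO value. The list limits leave room for this overlap in gained regions, since an unkept control summit can reach a −log10 p of 9.04 or 9.46 and a kept KO summit starts at 8.0 or 6.32. They leave none in lost regions.

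Height was compared next, since it can be divided by depth. The median height at gained regions was 13 fragments in control 1, 14 in control 2, 18 in KO 1 and 13 in KO 2. Over the genome background the medians were 6.26 in control 1 (lower and upper quartile 5.30 and 7.22), 5.90 in control 2 (5.06 and 6.74), 8.70 in KO 1 (7.73 and 10.6) and 8.93 in KO 2 (7.56 and 11.0). The 2 control medians lay close together, as did the 2 KO medians. The rule makes this likely, since members had to pass nearly equal scaled limits in both KO libraries and miss them in both controls. In members with a peak in all 4 libraries, the mean KO height over background was a median of 1.47 times the mean control height (quartiles 1.30 and 1.69, n = 1684). The ratio reached 1.5 in 785 members (46.6%) and 2 in 122 (7.24%), and it was below 1 in 7. Both scaled KO heights exceeded both control heights in 1603 (95.2%), a share set largely by the choice of members. The median height ratio was 0.623 in lost regions (n = 1430) and 0.938 in regions kept in all 4 lists (n = 42369). Only 766 of the 1684 members (45.5%) lay on the genome background in all 4 libraries. With the authors' fold over local background, the ratio of geometric means had a lower median of 1.36 (quartiles 1.23 and 1.54). It reached 1.5 in 494 members (29.3%) and 2 in 31 (1.84%). In 240 members (14.3%) a control fold was at or above a KO fold. Between libraries of 1 genotype, the median height ratio at gained regions was 0.985 for KO 1 over KO 2 (quartiles 0.854 and 1.11) and 1.03 for control 1 over control 2 (0.888 and 1.14). These ratios come from the same chosen values and do not measure how well the libraries of a genotype agree elsewhere. Most gained regions were thus differences of under 2 times in height at sites with a peak in all 4 libraries, with quartiles of 11 to 22 fragments over the 4 libraries.

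**Figure D3:**
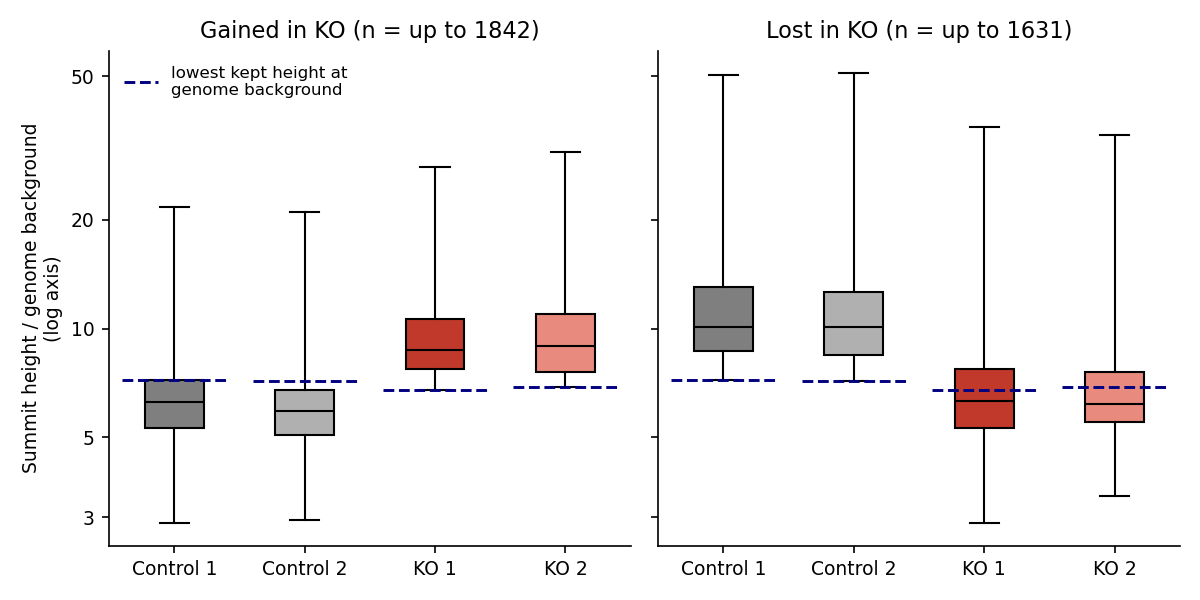
Summit height divided by the genome background of the library (y axis, log scale) at gained (left) and lost (right) regions in each library. Boxes are quartiles with the median, whiskers reach the lowest and highest value, regions without a peak in a library are left out of its box, and dashed lines mark the lowest height kept at genome background. At gained regions the control medians (6.26 and 5.90) lie below the dashed lines and the KO medians (8.70 and 8.93) above, as the choice of members makes likely.

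**Figure D4:**
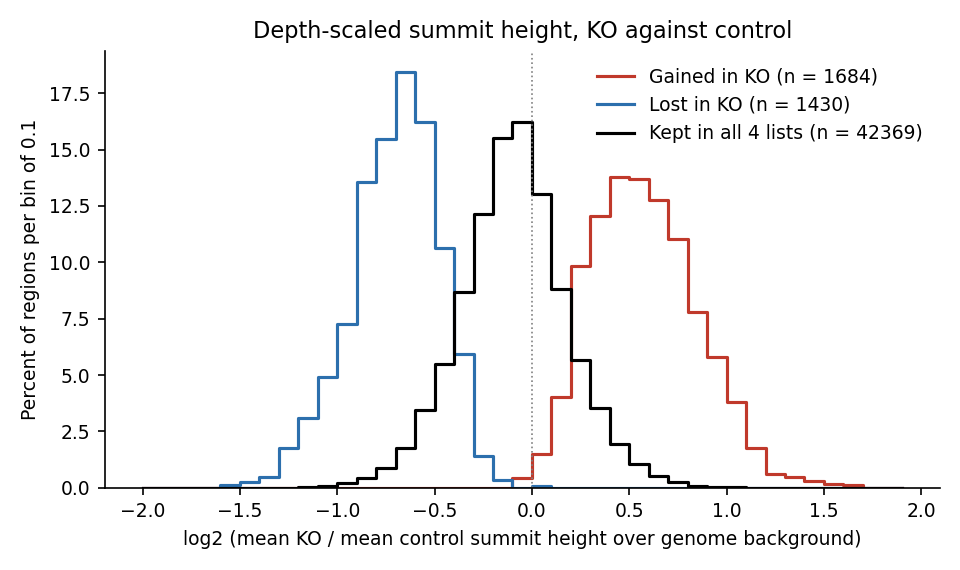
Distribution of log2 of the mean KO over the mean control summit height, each over genome background (x axis), as percent of regions per bin of 0.1 (y axis), for gained regions (red), lost regions (blue) and regions kept in all 4 lists (black) with a recovered height in all 4 libraries. The gained curve lies mostly right of 0 (median ratio 1.47) and the black curve is centered slightly left of 0 (median ratio 0.938).

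Among the 10 members with the best rank in the weaker KO library, the first was inside Frmd4a, which encodes a scaffold protein of epithelial polarity (chromosome 2, 4222279 to 4222684). Its height was 14 fragments in control 1, 16 in control 2, 31 in KO 1 and 20 in KO 2, or 6.74, 6.74, 15 and 13.7 over background. The next, 7612 bp from Htr3b, a serotonin-gated channel subunit, had 12, 9, 30 and 20 fragments and a scaled KO over control ratio of 2.95. A region inside Tmcc1 had 11, 8, 29 and 19 fragments and a ratio of 3.12. Emx2, a homeobox transcription factor of the forebrain, had a member 3640 bp away with 16, 15, 29 and 19 fragments and a ratio of 1.93. The others were nearest to or inside Cd55b, Cdh2, Zcchc2, Cttnbp2, Agtr1b and Hspb3. Across the 8 of these members with a peak in all 4 libraries, both KO heights exceeded both control heights, as their choice by KO rank makes likely.

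The 20 members with no control peak were narrow, with a median width of 152.5 bp, and 9 lay inside a protein-coding gene. None overlapped a start. The best ranked was 288210 bp from Agtr1b, an angiotensin II receptor gene (chromosome 3, 20655387 to 20655595), with 26 fragments in KO 1 and 20 in KO 2. The region inside Nbea was close to the limit, with 15 and 10 fragments. The region 3885 bp from Cep43 had 47 and 28 fragments but a fold of 3.21 and 3.00, and a local background above the genome background. The other named members of this kind were in or near Plec, Sbk2, Fam135a, Castor1, Sf3b1, Gm4832 and Sorbs3.

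At the limit itself, members and nonmembers had nearly the same values. A member near Fam172a ranked 99642 in KO 1 and 99934 in KO 2, with −log10 p of 8.05 and 6.33 and 12, 13, 15 and 11 fragments in control 1, control 2, KO 1 and KO 2. Just outside, a region near Zfp326 ranked 70441 in KO 2 but 100053 in KO 1, with −log10 p of 7.99 in KO 1 and 11, 16, 14 and 13 fragments in the same order. A region inside Arsb missed the KO 2 list at rank 100058 with 15, 18, 20 and 13 fragments.

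The median width of gained regions was 233 bp (quartiles 175 and 357, range 84 to 1260), against 393 bp for lost regions and 709 bp for regions kept in all 4 lists. The 8947 regions kept in 1 KO list and no control list were narrower still, with a median of 166 bp. Under 200 bp were 38.7% of the gained and 13.1% of the lost regions and 63.9% of those in 1 KO list, and over 500 bp were 11.3% and 32.2%. The kept intervals of the KO lists were narrower as a whole (above), and the part of this in the widths was not tested. The 141 members within 1000 bp of a start had a median width of 406 bp, against 231.5 bp for the 912 elsewhere inside genes and 220 bp for the 789 outside genes. The 5 widest members were in or near Xkr4, Ppp1r13b, Efna5, Xdh and Arnt2, at 1105 to 1260 bp, and those of Arnt2 and Efna5, a bHLH-PAS transcription factor gene and an ephrin ligand gene, lay 0 and 118 bp from a start.

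Most gained regions were distal. Inside a protein-coding gene lay 1042 members (56.6%, exact 95% interval 54.3% to 58.8%), against 56.2% of lost regions and 65.0% of the regions kept in all 4 lists. Exons and introns could not be told apart with the gene table used. The nearest start on file was over 100 kb away for 27.8% of gained, 19.3% of lost and 15.1% of regions kept in all 4 lists, and within 1 kb for 7.98%, 5.74% and 25.2%. Outside genes the median distance to the nearest gene was 25694 bp for gained and 17924 bp for lost regions. Starts missing from the file make distances to starts upper bounds. Gained regions thus had larger shares at both ends of this scale than lost regions, next to starts and far from them. So did regions in 1 KO list only, with 6.65% within 1 kb and 23.8% over 100 kb, so this is not particular to gained regions.

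**Figure D5:**
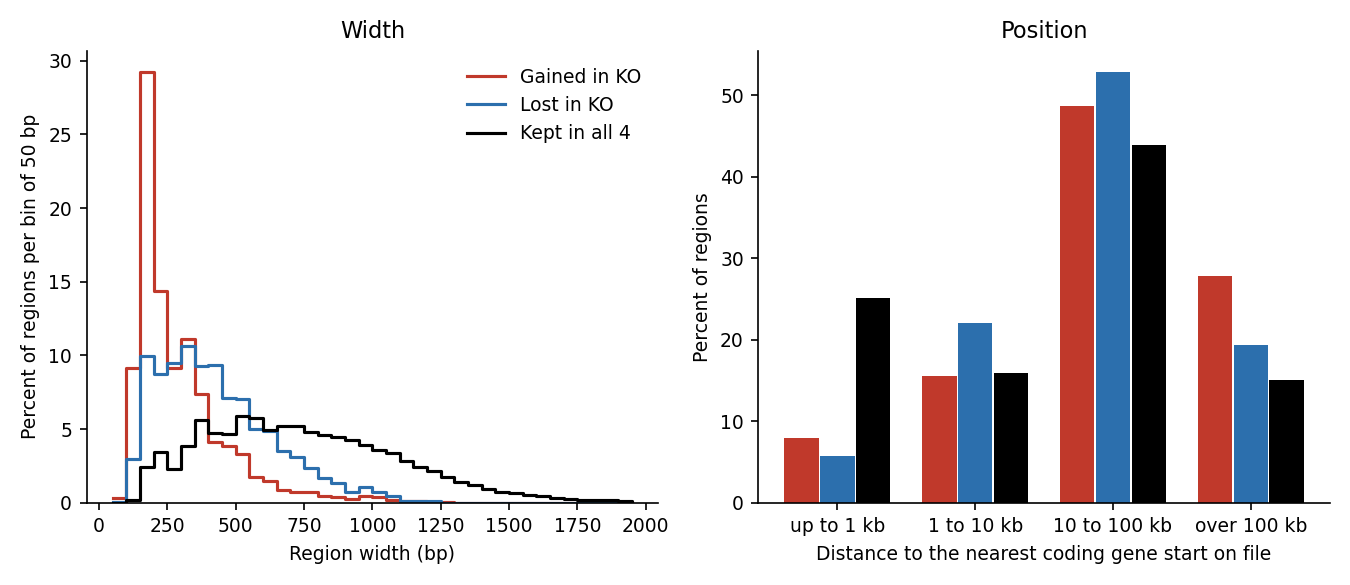
Left, width of the regions in bp (x axis) as percent of regions per bin of 50 bp (y axis). Right, percent of regions (y axis) by distance to the nearest protein-coding start on file (x axis), for gained (red), lost (blue) and regions kept in all 4 lists (black). Gained regions peak at 150 to 200 bp, and 27.8% of them lie over 100 kb from a start.

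Members were spread over all 20 chromosomes analyzed. The share of a chromosome's regions that were gained was lowest on chromosome 11, with 91 of 5565 (1.64%, exact 95% interval 1.32% to 2.0%), and highest on X, with 51 of 1417 (3.60%, 2.69% to 4.71%), against 2.49% of all regions. These are the 2 extremes of 20 chromosomes, and the intervals count regions, which are not replicates, so they leave out variation between libraries. The lost share was 2.26% on chromosome 11 and 2.12% on X, against 2.21% of all. The sex of the mice behind each library is not given, and its part in the X share was not tested. Neighboring members were a median of 726485.5 bp apart, and 23 pairs were under 10 kb.

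Within 5000 bp of or inside a protein-coding gene, members were found at 1189 genes, which is 6.94% of the 17134 genes with any region. Lost regions were found at 1180 genes (6.89%), and 151 genes had both (12.7% of the genes with a gained and 12.8% of those with a lost region). A single member was the rule, at 1100 genes, 75 had 2 and 14 had 3. The genes with 3 were Cyp19a1, Sema6a, Kctd1, Suds3, Cdh13, Thsd4, Peli2, Celf4, Ptprj, Ryr1, Mylk, Dscam, Tenm4 and Trappc9. Cyp19a1, the aromatase that makes estrogens, had 3 of its 4 regions gained. At the other 13 genes, the 3 gained regions stood among 7 to 25 regions.

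Calcium channel and store genes held the most members of the 11 gene lists reported. Of 26 genes, 8 had a gained and 5 a lost region, where 6.94% and 6.89% of all genes with any region did. Of the 229 regions at the 26 genes, 10 were gained (4.37%, against 2.49% of all regions) and 6 were lost. Gained regions lay at the voltage-gated channel genes Cacna1a, Cacna1b, Cacna1c and Cacnb2 and the inositol trisphosphate receptor genes Itpr1 and Itpr2. The others were at the store-operated channel gene Orai2 and the ryanodine receptor gene Ryr1. Itpr2 also had 2 lost regions and Ryr1 had 1. At Cacna1c the heights were 19, 20, 31 and 26 fragments in control 1, control 2, KO 1 and KO 2, with a scaled ratio of 1.87. The 3 regions at Ryr1 had ratios of 1.33, 1.20 and 1.64, and that at Itpr1 had 1.17, with 28, 30, 32 and 22 fragments. The 26 genes had a median of 6.5 regions each, more than any other list, and the list was written with earlier results of these data known.

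The lists of stem cell regulators and metabolic genes held 0 to 3 gained regions each, and with 63 to 213 regions per list such counts cannot be set apart from the 2.49% of all regions. Of 31 stem cell regulator genes, Fli1, Mecom and Prdm16, transcription factors needed for stem cell maintenance, had 1 gained region each (3 of 213 regions, 1.41%). At Mecom the heights were 10, 9, 16 and 11 fragments and at Fli1 12, 11, 16 and 15. Mecom also had 2 lost regions. Of 26 fatty acid oxidation genes, Cpt1a and Acsl1, which activates long-chain fatty acids, had 1 each (2 of 106 regions, 1.89%). The Cpt1a region (chromosome 19, 3339225 to 3339459, inside the gene) was 235 bp wide, with 13 fragments in control 1, 19 in control 2, 20 in KO 1 and 14 in KO 2. In fragments the control 2 height thus exceeded that of KO 2. Over background the values were 6.26, 8.01, 9.67 and 9.62, with a ratio of the KO to the control mean of 1.35. Of the 9 regions at Cpt1a, none was lost. None of the 26 oxidative phosphorylation genes had a gained region and 2 had a lost one.

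In 7 other lists 1 or 2 genes had a member. They were Ccnd2, cyclin D2 of the G1 phase, among 37 cell cycle genes, Pdk1 among 23 genes of glucose uptake and glycolysis, Prdx1 and Keap1 among 23 antioxidant genes, Lef1 among 26 lymphoid and B cell genes, Csf1r among 22 myeloid and granulocyte genes, Fli1 among 22 erythroid and megakaryocyte genes, and Tet2 among 28 genes of CTCF, cohesin and chromatin modifiers. The gained share of the regions at these lists was 0.826%, 1.30%, 2.47%, 0.847%, 1.30%, 1.18% and 0.649%. Gained against lost regions numbered 1 against 3 in the cell cycle, glycolysis and myeloid lists, 2 against 3 in the antioxidant list, 1 against 1 in the lymphoid list, 1 against 4 in the erythroid list and 1 against 0 in the chromatin list. Keap1 had a lost region too. At Ccnd2 the heights were 14, 16, 18 and 13 fragments. The T cell receptor subunit gene Cd3e also had a member, with 12, 14, 16 and 11 fragments. Of the 6 T cell marker genes looked up, only Cd3e had a gained region and only Lck had a lost one. The Prdx1 region lies closer to Mmachc, and with 28, 30, 38 and 31 fragments it was among the highest of the list members. In each of these 7 lists the gained share was below the 2.49% of all regions, on counts of 1 or 2.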

How the data were processed

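The authors called peaks in each ATAC-Seq library separately, and the submitters' processing notes name Bowtie2, MACS2 and mm10 without versions. The deposited lists, 1 row per summit, give the fold over local background as a ratio and the −log10 p and −log10 q as the authors' caller wrote them. The lists give no read counts, so read depth per library is known only through the background recovered here. Summit rows were ranked by −log10 p (ties by fold, chromosome and start), and intervals were merged in pandas 2.3.3 and numpy 2.4.6 under Python 3.11.15. For every summit the height k and background b that give fold = (k + 1)/(b + 1) and the Poisson probability of more than k fragments were solved with scipy 1.17.1, and k was called whole when the −log10 p agreed within 0.001. The genome background is the commonest b of a library. Region calling and height recovery were tested on simulated data. Members of a genotype pair were compared with no test, and intervals are exact binomial or Poisson. The binomial intervals treat regions as independent and do not cover variation between libraries.

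Named were the 10 members with the best rank in the weaker KO library, the 10 such members with no control peak, the 5 widest, the genes with the most members, the 10 best ranked over a start, genes of the gene lists and Cpt1a. The gained regions and the gene lists were chosen with earlier results of these data known. Some results that this rule covers, the T cell gene list among them, are not reported here. The Poisson formulas, the promoter motifs and the CpG counts were chosen after the data were seen.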

Additional observations from a re-analysis of the deposited data

How the results depend on the processing

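The number of gained regions and their balance against lost regions depended on how the lists were cut. The count was 1101 with 50000 summits per library, 4778 with every summit, 1144 with 56000 intervals per library and 20 when no control peak of any score was allowed, against 1842. Only 11 of the 1842 members (0.597%) were also gained with 50000 summits, 265 (14.4%) with 150000, 819 (44.5%) when ranked by fold, 1043 (56.6%) with 56000 intervals and 864 (46.9%) when summits were kept from a height of 7 genome backgrounds. The 11 and the 265 follow from ranks given above and are no separate result. They are the members within the first 50000 of both KO lists, and those with both controls beyond 150000 or without a peak. Leaving out 1 library gave 3648 to 7285, and each of the 4 moved the count by over 1.5 times (3648 without control 1, 3882 without control 2, 7285 without KO 1 and 5435 without KO 2), as fewer libraries had to meet the rule.

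Gained regions were 53.04% of all gained and lost regions, but under 50% with 150000 summits (49.2%), every summit (36.5%), ranking by fold (48.9%), a covered share of 0.5 (28.0%), 56000 intervals (33.7%), a height limit of 7 backgrounds (29.5%) and no peak of any score (48.8%). Without 1 library this share was 43.8% to 64.5%, and it fell below 50% without control 1 (43.8%) or control 2 (46.4%). Part of the shift without 1 library follows from the rule. Without control 1, the 2922 regions kept in control 2 alone would count as lost. The 1761 kept in control 1 and both KO lists would join the gained. Without control 2 these numbers were 2771 and 2007. Without KO 1, the 5428 regions kept in KO 2 alone would join the gained and 2383 the lost. Without KO 2 these numbers were 3519 and 1942. The cause of the other shifts was not tested.

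The median width moved to 199 bp with 150000 summits, 422 bp with 200 bp on each side of the summit, 355 bp with 50000, 162 bp with every summit, 213 bp with the height limit, 152.5 bp with no control peak of any score and 218 bp ranked by fold, and was 167 to 264 bp without 1 library. The share inside a gene moved to 53.7% with 150000 summits, 65.5% with genes of all types and 45.0% with no control peak. The share with a weaker control peak moved to 87.5% with 150000, 99.9% with 50000, 99.6% with 56000 intervals, 86.6% with the height limit and 97.1% ranked by fold, and was 88.7% to 97.2% without 1 library. With every summit kept it cannot be given, since no weaker peak remains. The equal intervals, the height limit and the absence of any peak were chosen after seeing the data. The CTCF motif alternative was not run, as the sequence of distal regions was not used here. No paired analysis was possible because no result comes from a test, and the heights are values of the libraries that chose the members.

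Counting error limits single regions, since most heights were 10 to 22 fragments.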
